A study of Mus musculus with 4 samples.

Results

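The Ebf, Insm, Myt1 and Scrt genes are 4 small families of transcription factors that act as neural precursors leave the cell cycle and become neurons. Their 10 members were taken from the expression table by symbol (*Ebf1*, *Ebf2*, *Ebf3*, *Insm1*, *Insm2*, *Myt1*, *Myt1l*, *St18*, *Scrt1* and *Scrt2*), and each was found, as 1 row among the 24421 genes listed. RNA-seq was carried out on GFP+ cells sorted from E11.5 mouse neural tubes of the Prdm13 Het and Prdm13 Homo genotypes. In both, GFP with a stop codon sits in the first exon of *Prdm13*, on one allele in Prdm13 Het (*Prdm13* GFP/+) and on both in Prdm13 Homo (*Prdm13* GFP/GFP). The GFP marks cells that use the *Prdm13* promoter, in embryos of mixed ICR and C57Bl/6 background, and both groups compared carry the GFP allele. RNA from 7 Het embryos was combined into 1 pool and RNA from 9 Homo embryos into another, and each pool gave 2 libraries, which are thus technical replicates. Standard deviations and tests therefore hold the spread between libraries of a pool, not the spread between embryos.

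The Ebf proteins (Early B cell factors, also called COE factors) bind DNA through their own zinc-containing domain and dimerize through a helix-loop-helix, and in the neural tube they promote the migration of new neurons out of the ventricular zone and their differentiation. INSM1 is a zinc finger repressor of precursors about to differentiate, and it carries at its N terminus a SNAG motif, which recruits the KDM1A and RCOR histone-modifying complex. The Scratch proteins SCRT1 and SCRT2 belong to the Snail superfamily, carry the same motif, and repress genes in newborn neurons by binding E-boxes. The Myt1 family (MYT1, MYT1L and ST18, also called MYT3) binds DNA through CCHC zinc fingers, and MYT1L is known for repressing non-neuronal genes in neurons. Proneural bHLH factors, which bind E-boxes of the form CANNTG, act upstream of many of these genes.

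Start site windows from RefSeq (GRCm38.p6; 250 bases before to 50 after the start) were at hand for 5 of the 10 genes, as 12 windows. They were searched for the E-box CANNTG, whose letters read the same on both strands, and for CCCNNGGG, the core of the site that Ebf proteins are known to bind, which also reads the same on both strands. CANNTG was in 8 of the 12 windows and in 72.3% of 32851 RefSeq windows of the same length, and CCCNNGGG was in 3 of the 12 and in 13.7% of the RefSeq windows. The 3 windows printed here are those of *Ebf1* at the start of its RefSeq span (chr11:44617850-44618149, plus strand) and of *Ebf3* at a start inside its span (chr7:137314396-137314695, minus strand), the Ebf genes with a window, and, for contrast in expression, that of *Myt1l* (chr12:29528134-29528433, plus strand). Each reads 5′ to 3′ with any match to either motif in capitals.
Ebf1: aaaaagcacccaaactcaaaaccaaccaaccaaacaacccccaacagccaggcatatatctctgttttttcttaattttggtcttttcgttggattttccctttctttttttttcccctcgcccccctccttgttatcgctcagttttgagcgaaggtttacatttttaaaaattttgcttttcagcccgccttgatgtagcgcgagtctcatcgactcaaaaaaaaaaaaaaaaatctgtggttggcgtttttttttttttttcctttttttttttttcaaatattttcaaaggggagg
Ebf3: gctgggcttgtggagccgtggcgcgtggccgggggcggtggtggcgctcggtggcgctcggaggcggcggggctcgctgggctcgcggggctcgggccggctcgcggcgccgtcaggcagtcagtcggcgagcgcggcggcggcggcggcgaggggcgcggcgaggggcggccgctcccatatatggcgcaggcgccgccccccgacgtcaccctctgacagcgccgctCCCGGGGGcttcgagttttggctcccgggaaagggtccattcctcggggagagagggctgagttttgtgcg
Myt1l: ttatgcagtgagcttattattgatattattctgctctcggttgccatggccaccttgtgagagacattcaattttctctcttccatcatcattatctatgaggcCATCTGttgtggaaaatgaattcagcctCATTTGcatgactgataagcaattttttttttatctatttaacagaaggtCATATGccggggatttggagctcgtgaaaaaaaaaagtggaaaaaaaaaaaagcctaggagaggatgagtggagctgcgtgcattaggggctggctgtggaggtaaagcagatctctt
The *Ebf1* window held neither motif, and a second *Ebf1* window (chr11:44619978-44620277) held E-boxes at -108 and 9, counted from the start site as 0. The *Ebf3* window held no E-box and 1 CCCNNGGG, at -21. The *Myt1l* window held 3 E-boxes, at -146, -118 and -68, and it is the first of 5 windows of the gene, of which 4 held an E-box. These matches describe the letters of the windows, and no binding was measured.

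All levels below are in RPKM (reads per kilobase of exon, scaled to library size), so that they can be compared between genes as well as between libraries. The libraries held 11229931 to 17871880 reads on the genes whose read counts could be solved from the RPKM values, and 11774 to 11831 genes had an RPKM of at least 1. *Prdm13* itself stood at 114 and 127 RPKM in the Het libraries and at 310 and 324 in the Homo libraries, and reads from the transcript of the GFP allele can count towards the gene, so this level does not check the loss of the protein. Of 12 markers of the dorsal neural tube, *Prdm13* among them, all were tested and 10 were called (adjusted p under 0.05 in limma and at least 1.5-fold), where 6.33% of all genes tested were, with *Tlx3* and *Lmx1b* (excitatory neuron identity) the highest and *Pax2* and *Lhx1* (inhibitory neuron identity) the lowest in log2 fold change. In bulk RNA, fewer cells of a type and less RNA per cell cannot be told apart.

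The question put to the 10 genes was how they differed between sorted cells of the 2 genotypes. The 3 Ebf genes were higher in the Homo libraries and *Scrt2*, *Insm1* and *Myt1l* were somewhat lower, while *Myt1*, *St18* and *Scrt1* did not pass the test and *Insm2* was near the limit of detection. Of the 9 genes tested with limma on log2(RPKM + 0.1), 2 were called higher at an adjusted p under 0.05 and a change of at least 1.5-fold, where 3.65% of the 12046 genes tested were called higher. None of the 9 was called lower, where 2.67% of all genes were, and 6.33% of all genes were called in either direction. By the adjusted p alone, whatever the fold, 3 were higher (9.76% of all genes tested) and 3 lower (9.95%). The 2 libraries of each genotype did not overlap for 7 of the 9 genes, close to the share among all genes tested (62.1%). Both Homo libraries were above both Het libraries for 3 of them (31.7% of all genes) and below for 4 (30.3%). The median log2 fold change of the 9 genes was -0.07, beside 0.01 over all genes tested.

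**Figure D1:**
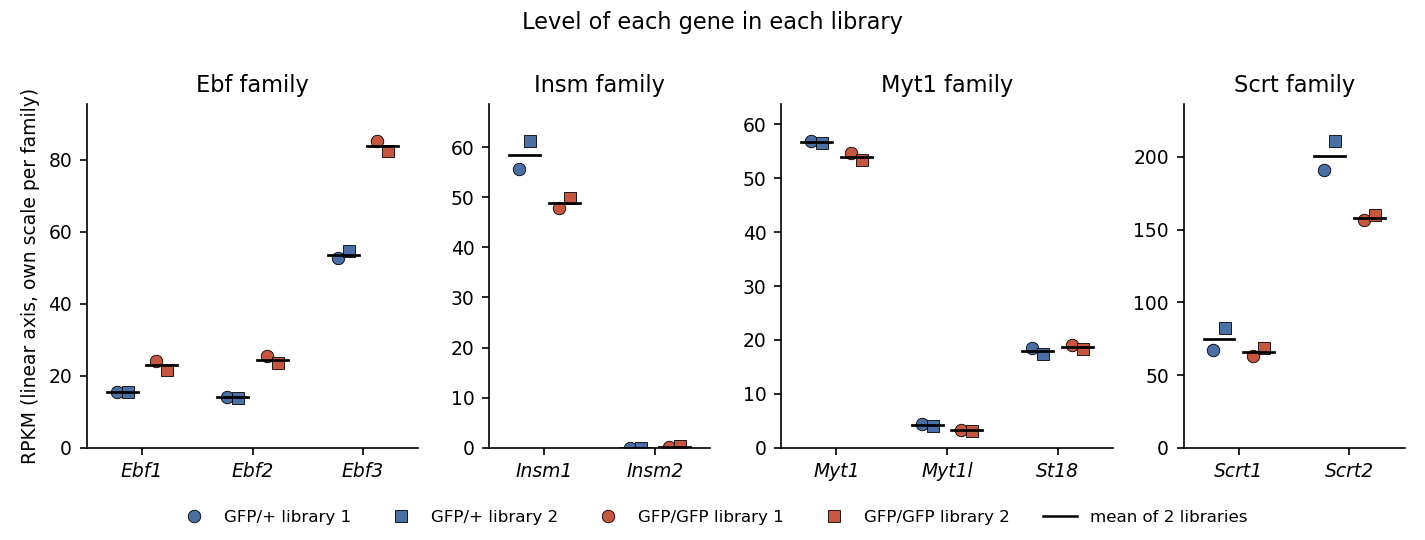
RPKM of the 10 genes (linear axis from 0, with its own scale for each family) in each library; blue points are the GFP/+ (Het) libraries, red points the GFP/GFP (Homo) libraries, and bars the mean of 2 libraries. The red points lie above the blue for the 3 Ebf genes (for *Ebf3* 82.4 and 85.2 against 52.6 and 54.7 RPKM) and below them for *Insm1*, *Myt1*, *Myt1l* and *Scrt2*.

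The Ebf family was the family with called genes. *Ebf2* (gene ID 13592, chr14:67233292-67430952 on mm10, a span of 198 kb) was measured at 14.2 and 13.9 RPKM in the Het libraries, from 912 and 1411 reads, and at 25.5 and 23.5 RPKM in the Homo libraries, from 2294 and 1777 reads. Both Homo libraries were above both Het libraries by more than the gap within either genotype. The mean went from 14.1 ± 0.230 to 24.5 ± 1.43 RPKM (SD, n = 2 libraries), a 1.74-fold difference, and the log2 fold change was 0.79 (SE 0.0617, 95% confidence interval 0.65 to 0.94, limma adjusted p = 0.000456). This was the largest change among the 9 genes tested.

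*Ebf3* (gene ID 13593, chr7:137193671-137322805, 129 kb) was the most abundant of the family. It stood at 52.6 and 54.7 RPKM in Het (3060 and 5032 reads) and at 85.2 and 82.4 RPKM in Homo (6961 and 5660 reads), with no overlap. The log2 fold change was 0.64 (SE 0.0479, interval 0.53 to 0.76, limma adjusted p = 0.000398), or 1.56-fold between the means of 53.7 ± 1.44 and 83.8 ± 2.02 RPKM (SD, n = 2). The interval for *Ebf3* ran below the 1.5-fold line, at 0.58 on the log2 scale, while that for *Ebf2* lay above it.

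*Ebf1* (gene ID 13591, chr11:44618100-45008096, 390 kb), first known from B cell development, was measured at 15.4 and 15.5 RPKM in Het (951 and 1515 reads) and at 24.1 and 21.8 RPKM in Homo (2090 and 1586 reads). The Homo libraries were again the higher pair, and they lay farther from each other than the Het libraries did. The log2 fold change of 0.56 (SE 0.0657, interval 0.41 to 0.72, limma adjusted p = 0.00246) passed the adjusted p and fell short of 1.5-fold, so *Ebf1* was not called. It was called without Homo replicate 2 (0.64, adjusted p = 0.0206). The calls of *Ebf2* and *Ebf3* were lost when genes of low RPKM were kept in the fit (adjusted p = 0.0619 for each in limma), a setting under which 30 genes were called higher and 14 lower in the whole table.

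Summed over its 3 genes, the Ebf family went from 82.3 and 84.1 RPKM to 135 and 128 RPKM, a difference of 0.66 on the log2 scale. The exact permutation test gave p = 0.333 (two-sided), the smallest value that 2 libraries against 2 allow. *Ebf3* made up 64.5% of the family total in Het and 63.9% in Homo, and these shares overlapped between genotypes. *Ebf2* took 16.9% in Het and 18.7% in Homo, while *Ebf1* took 18.6% and 17.5%. The log2 ratio of *Ebf1* to *Ebf2* was 0.12 and 0.16 in the Het libraries and -0.08 and -0.11 in the Homo libraries, so the gene of the pair with the higher level was *Ebf1* in Het and *Ebf2* in Homo, although the levels of the pair overlapped between the Homo libraries. An annotated antisense gene covers part of the exon bases of *Ebf2* (*Gm10860*, 6.12%) and of *Ebf3* (*Gm45278*, 3.85%) in GENCODE, and whether reads were counted by strand is not given in the sources used here.

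**Figure D2:**
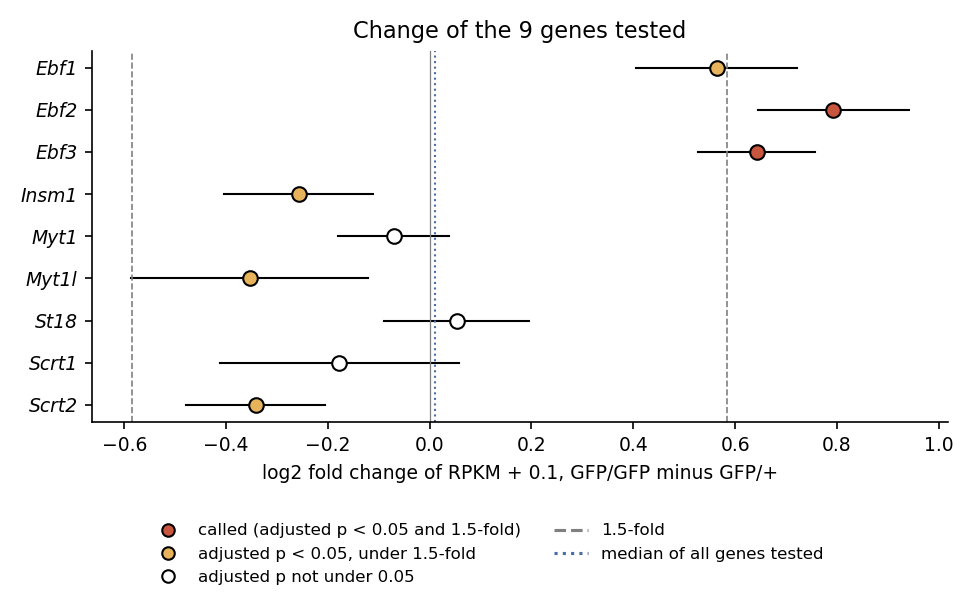
Log2 fold change of RPKM + 0.1, Homo minus Het, with its 95% confidence interval from limma for the 9 genes tested. Red points are called, yellow points pass the adjusted p of 0.05 at under 1.5-fold and white points do not pass; *Ebf2* (0.79) and *Ebf3* (0.64) lie beyond the dashed 1.5-fold line and *Ebf1* (0.56) just inside it.

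*Scrt2* was the most abundant of the 10 genes in both genotypes. *Scrt2* (gene ID 545474, chr2:152081529-152095802, 14.3 kb) was at 191 and 211 RPKM in Het (7506 and 13119 reads), above 97.98% of the genes tested, and at 157 and 160 RPKM in Homo (8655 and 7425 reads). The Homo libraries were both below the Het libraries, and the mean went from 201 ± 14.03 to 158 ± 2.19 RPKM (SD, n = 2). The log2 fold change was -0.34 (SE 0.0567, interval -0.48 to -0.21, limma adjusted p = 0.00908), under 1.5-fold.

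*Scrt1* (gene ID 170729, chr15:76516203-76522129) gave 67.3 and 82.4 RPKM in Het (3125 and 6053 reads) and 62.9 and 68.9 RPKM in Homo (4102 and 3779 reads). The genotypes overlapped, with the first Het library below the second Homo library. Its log2 fold change of -0.18 (SE 0.0980, interval -0.41 to 0.06) did not pass (limma adjusted p = 0.255), and it was -0.03 without Het replicate 2 and -0.32 without Het replicate 1. *Scrt1* made up 27.1% of the summed Scratch level in Het and 29.4% in Homo, and the sum of the pair was 258 and 293 RPKM in Het and 220 and 229 RPKM in Homo (difference of -0.30 on the log2 scale, exact permutation p = 0.333, the smallest possible).

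*Insm1* (gene ID 53626, chr2:146221997-146225020, a gene of 3024 bases) was measured at 55.6 and 61.2 RPKM in Het (1945 and 3388 reads) and at 47.8 and 49.8 RPKM in Homo (2348 and 2058 reads). Both Homo libraries were below both Het libraries, with a log2 fold change of -0.26 (SE 0.0607, interval -0.40 to -0.11, limma adjusted p = 0.0300), under 1.5-fold. Its paralog *Insm2* (gene ID 56856, chr12:55598917-55602018) was listed at 0 in both Het libraries and at 0.0992 and 0.283 RPKM in the Homo libraries, from 5 and 12 reads. Its mean RPKM was too low for it to be tested. Set against a floor of 3 reads in each Het library (0.0836 and 0.0528 RPKM), the Homo mean was at least 2.80-fold higher, a bound that covers the counting error of the Het libraries only. The bound was 1.45-fold from Homo replicate 1 alone and 4.15-fold from Homo replicate 2 alone. With genes of low RPKM kept, *Insm2* had an unadjusted p of 0.04999 and a limma adjusted p = 0.277.

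Within the Myt1 family, *Myt1* (gene ID 17932, chr2:181763332-181827775) was the most abundant, at 56.9 and 56.6 RPKM in Het (4208 and 6630 reads) and 54.6 and 53.4 RPKM in Homo (5674 and 4673 reads). The Homo libraries were both the lower, but by a log2 fold change of only -0.07 (SE 0.0451, limma adjusted p = 0.320), and the interval from -0.18 to 0.04 holds changes well inside 1.5-fold. *St18* (gene ID 240690, chr1:6487231-6860940, 374 kb) gave 18.5 and 17.5 RPKM in Het (1322 and 1971 reads) and 19.1 and 18.3 RPKM in Homo (1912 and 1540 reads). Its genotypes overlapped, and the log2 fold change was 0.05 (SE 0.0594, interval -0.09 to 0.20, limma adjusted p = 0.569).

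*Myt1l* (gene ID 17933, chr12:29527590-29923216, 396 kb), the member of the family most tied to mature neurons, was far less abundant. Its level was 4.36 and 3.97 RPKM in Het (380 and 547 reads) and 3.25 and 3.22 RPKM in Homo (398 and 331 reads), with both Homo libraries below both Het libraries. The log2 fold change of -0.35 (SE 0.0971, interval -0.59 to -0.12) only just passed the adjusted p (limma adjusted p = 0.0481). In GENCODE, 4.52% of the exon bases of *Myt1l* are shared with *Gm20208* on the other strand. *Myt1l* made up 5.28% of the summed Myt1 family in Het and 4.26% in Homo, and the family total differed by -0.06 on the log2 scale (79.8 and 78.0 RPKM in Het, 76.9 and 74.9 RPKM in Homo, exact permutation p = 0.333, the smallest possible).

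With each library left out in turn, the log2 fold changes stayed negative, at -0.41 to -0.27 for *Scrt2*, -0.33 to -0.19 for *Insm1* and -0.42 to -0.29 for *Myt1l*, while the adjusted p was often lost. None of the 3 passed an adjusted p of 0.05 without Homo replicate 1 (0.0776, 0.152 and 0.151 in limma, in that order) or without Homo replicate 2 (0.0875, 0.128 and 0.203). Without Het replicate 2, *Scrt2* still passed (0.0498) and the others did not, and without Het replicate 1, *Scrt2* (0.0132) and *Insm1* (0.0373) passed and *Myt1l* did not (0.233). The 3 Ebf genes passed the adjusted p in each of these fits.

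**Figure D3:**
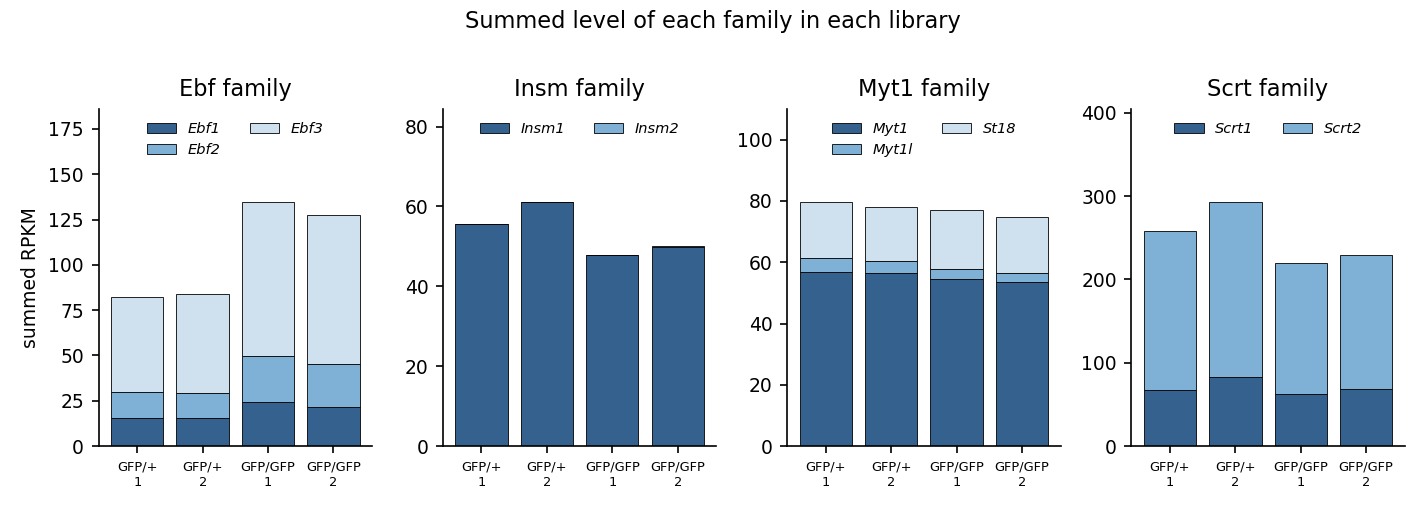
Summed RPKM of each family by library, stacked by gene, with an own linear axis from 0 for each family. The Ebf total is 82.3 and 84.1 in the GFP/+ (Het) libraries and 135 and 128 in the GFP/GFP (Homo) libraries, while the Insm and Scratch totals are lower in GFP/GFP and the Myt1 totals differ little.

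The order of the levels shifted with the Ebf genes. In the Het libraries it ran, from the highest, *Scrt2*, *Scrt1*, *Insm1*, *Myt1*, *Ebf3*, *St18*, *Ebf1*, *Ebf2*, *Myt1l* and *Insm2*, and the only neighbours whose libraries overlapped were *Insm1* and *Myt1*. In the Homo libraries it ran *Scrt2*, *Ebf3*, *Scrt1*, *Myt1*, *Insm1*, *Ebf2*, *Ebf1*, *St18*, *Myt1l* and *Insm2*, and the only overlapping neighbours were *Ebf2* and *Ebf1*. *Ebf3* thus stood below *Myt1* and both Scratch genes in Het, and above *Myt1* and *Scrt1* in Homo. The ratio of the summed Ebf level to the summed level of the other 7 genes was 0.209 and 0.195 in Het and 0.392 and 0.361 in Homo, a ratio formed after these values had been seen and given with no test.

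**Figure D4:**
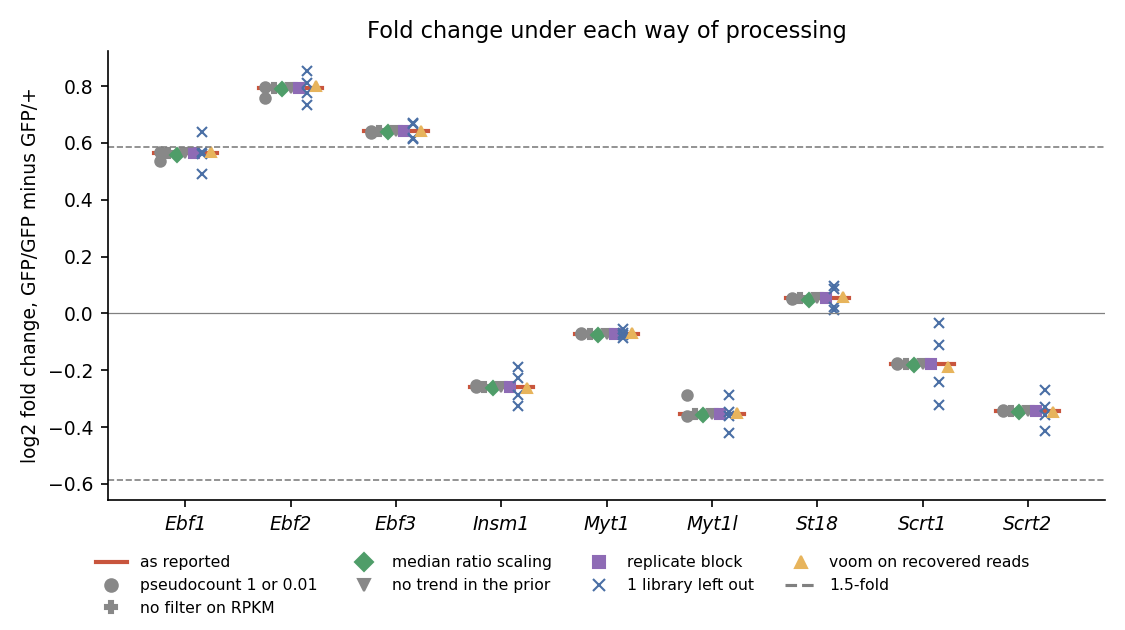
Log2 fold change (Homo minus Het) of the 9 genes tested as reported (red bars) and under each other way of processing, with blue crosses for fits that leave out 1 library. *Ebf2* and *Ebf3* stay beyond the dashed 1.5-fold line in every setting, *Ebf1* runs from 0.49 to 0.64 across it, and no gene changes sign.

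Among the genes whose profile over the 4 libraries, less their own mean, was nearest that of *Ebf2* (of 8943 genes with a mean of at least 5 RPKM), the nearest 3 were *Th*, *Hspa12a* and *Mfhas1*. *Th*, the rate-limiting enzyme of catecholamine synthesis, was at 4.48 and 4.50 RPKM in Het and 7.98 and 7.28 RPKM in Homo. Its distance to the *Ebf2* profile was 0.0523 on the log2 scale, with 0.0615 for *Hspa12a* and 0.0678 for *Mfhas1*. With 4 libraries such a profile is little more than the size of the difference between genotypes.

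The proneural bHLH factors, several of which are known to switch on Ebf, Insm or Scratch genes, were mostly higher in Homo. Of 10 listed, 7 were tested and 3 were called higher with none lower, against 3.65% called higher and 2.67% called lower of all genes tested. *Neurod4* was at 6.25 and 6.35 RPKM in Het and 24.2 and 23.4 RPKM in Homo (log2 fold change 1.90, limma adjusted p = 9.59e-06). *Neurog1* was at 9.85 and 12.5 against 35.3 and 42.0 RPKM (1.79, limma adjusted p = 0.000322), and *Neurog2* at 60.0 and 69.1 against 111 and 116 RPKM (0.81, limma adjusted p = 0.000840). By the adjusted p alone, 6 of the 7 were higher (9.76% of all genes tested) and none lower (9.95%). The median over the 7 was 0.44.

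RNA was also measured for the proteins that Ebf, Insm, Myt1 and Scratch factors are known to work with. Of 16 such genes, among them the KDM1A, RCOR, HDAC and SIN3 repressor subunits, all were tested and none was called, where 6.33% of all genes were, and the median log2 fold change was 0.03. With limma, 2 passed the adjusted p as higher (9.76% of all genes did), both at under 1.5-fold and both named after their values were seen. *Zfp423*, whose protein binds EBF1 (22.3 and 24.2 RPKM in Het, 32.0 and 33.5 in Homo), had a log2 fold change of 0.49 (limma adjusted p = 0.00329). *Rcor2* (173 and 177 against 212 and 220 RPKM) had 0.30 (limma adjusted p = 0.00532). *Kdm1a* was at 108 and 103 against 109 and 110 RPKM. Of the 5 other SNAG repressors (*Snai1*, *Snai2*, *Snai3*, *Gfi1* and *Gfi1b*), only *Snai1* was abundant enough to be tested, and its log2 fold change was 0.09 (limma adjusted p = 0.776).

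Precursor and early neuron genes, of the steps before and after, were also measured. Of 12 progenitor genes and Notch effectors, all were tested. The Notch effector *Hey2* (0.887 and 0.798 RPKM in Het, 1.43 and 1.53 in Homo) passed the filter through Homo alone. Of the other 11, 1 was called higher (3.65% of all genes tested), the Notch effector *Hey1* (0.67), and 1 lower (2.67%), the precursor factor *Sox1* (-0.68). By the adjusted p alone, 5 of the 12 were higher (9.76% of all genes tested), *Hey2* among them, and 3 lower (9.95%). Of 17 early neuron genes, all tested, 4 were called higher (3.65% of all genes tested) and 1 lower (2.67%), with a median of 0.23. By the adjusted p alone, 10 were higher (9.76% of all genes) and 2 lower (9.95%). The neurofilament genes *Nefl* (42.0 and 45.5 against 118 and 132 RPKM, log2 fold change 1.51) and *Nefm* (1.21) were the highest. *Gap43*, of growing axons (1.196), and *Stmn2* (0.61) were the other two called higher, and *Snap25*, of synaptic vesicle release, was called lower (-0.63); *Gap43* is named after its values were seen. With genes of low RPKM kept in the fit, the calls were 1 in the proneural list, 0 in the progenitor list and 1 in the early neuron list.

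**Figure D5:**
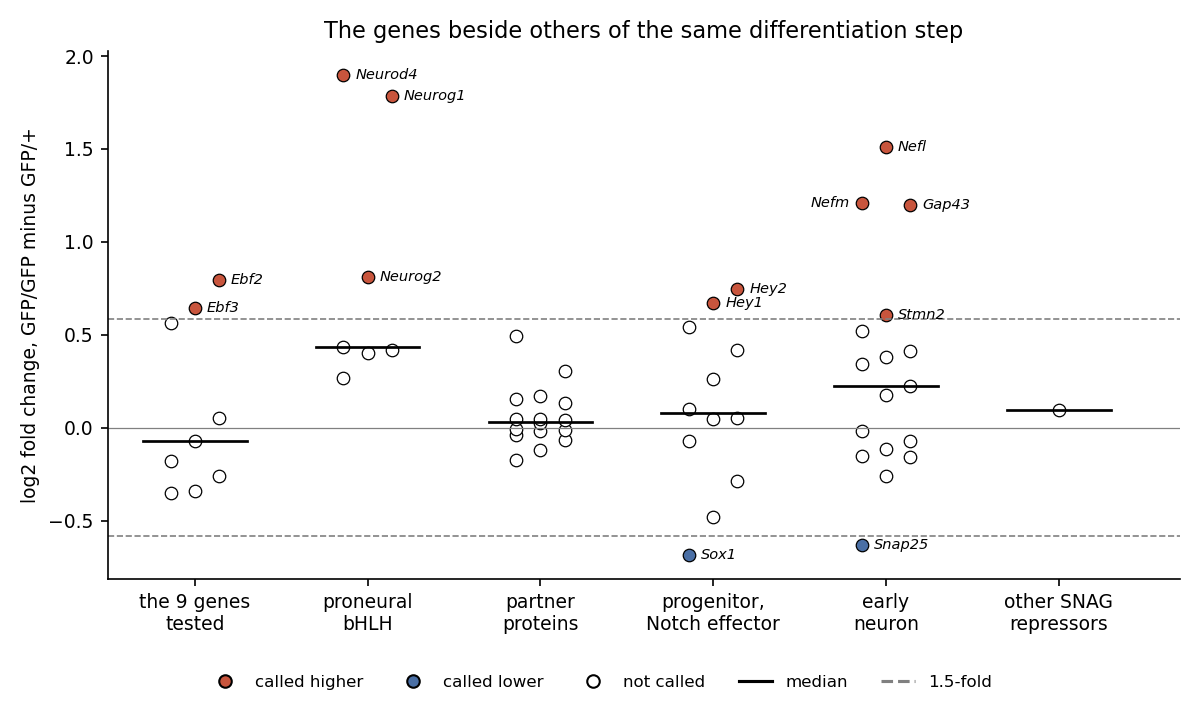
Log2 fold change of RPKM + 0.1 (Homo minus Het) for the 9 genes tested beside listed genes of the same differentiation step, 1 point for each gene, with the median as a bar and the 1.5-fold lines dashed. Red and blue points are genes called higher and lower; the median is -0.07 for the 9 genes, 0.44 for the proneural bHLH genes, 0.03 for the partner proteins and 0.23 for the early neuron genes.

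Ebf, Insm, Scratch and Myt1 genes are also known from peripheral sensory and sympathetic neurons and, for *Ebf1*, from B cells and mesenchyme, so markers of these cells were measured in the same libraries. The 10 dorsal root ganglion markers summed to 18.7 to 20.0 RPKM in Het and 31.8 to 34.3 in Homo. Without *Prdm12*, a gene of sensory neuron precursors, they summed to 18.1 to 19.4 in Het and 18.4 to 18.9 in Homo. The largest part of the sum without *Prdm12* was *Ntrk2*, at 12.2 and 12.6 RPKM in Het and 9.10 and 8.87 in Homo. *Ntrk3* was next, at 3.29 and 3.65 against 6.60 and 6.77 RPKM, and changed the other way. *Prdm12* was at 0.594 and 0.596 RPKM in Het and 13.4 and 15.4 in Homo and passed the filter through Homo alone. The paper describes *Prdm12* as a gene normally confined to a ventral progenitor domain of the neural tube. Its in situ hybridization found *Prdm12* RNA at ectopic dorsal positions of the tube once PRDM13 was lost. How much of the higher *Prdm12* level in Homo came from ganglion cells was not tested. Of the other 2 tested, *Ntrk3* was called higher (log2 fold change 0.93) and *Ntrk2* was lower at under 1.5-fold (-0.46, limma adjusted p = 0.00382, named after its values were seen). Among the markers not tested, *Avil*, *Isl2*, *Runx1* and *Runx3* were at or under 0.383 RPKM in every library. The rest stood higher, with *Prph* at 0.649 to 0.995, *Six4* at 0.725 to 1.09 and *P2rx3* at 0.572 to 0.899 RPKM over the libraries. The 4 sympathoadrenal markers summed to 4.56 to 4.61 RPKM in Het and 7.57 to 8.16 in Homo, with the 1 gene tested, *Th*, called higher (0.75), while *Hand2*, *Dbh* and *Gata3* were at or under 0.128 RPKM in every library. All 4 libraries are of GFP+ cells sorted from neural tubes, and the part of such cells in the Ebf values was not tested. The 5 B lymphoid markers summed to at most 0.378 RPKM in any library and the 11 mesenchymal ones to 5.66 to 6.03 RPKM in Het and 4.60 to 4.76 in Homo. The 5 neural crest and glia markers summed to 12.2 to 15.2 RPKM in Het and 6.93 to 7.30 in Homo, with *Foxd3* called lower (-1.41) of 2 tested. The 5 endothelial markers summed to 2.90 RPKM or less in Het and 2.70 to 3.15 RPKM in Homo, and the 7 erythroid ones to 30.8 to 31.4 and 33.1 to 34.5 RPKM with *Hba-a1*, *Hba-a2* and *Hbb-bs* listed at 0, and no gene of either list was called.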

How the data were processed

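Libraries of polyadenylated RNA (Illumina TruSeq) from trypsin-dissociated, FACS-sorted GFP+ cells were grouped by the genotype in the submitters' labels. The authors aligned reads with TopHat2 2.1.0 to mm10, counted them on RefSeq exons with featureCounts, applied TMM in edgeR 3.6.8 and deposited RPKM, which were used as deposited. Because the deposited RPKM are not counts, limma stood in for a count test. The test was limma's (3.58.1, R 4.3.3; lmFit, then eBayes with its trend option) on log2(RPKM + 0.1), two-sided, for the 12046 genes that averaged 1 RPKM or more in one of the genotypes, with Benjamini-Hochberg adjustment over all of them. The log2 scale with its pseudocount understates changes of low genes. Calls needed an adjusted p under 0.05 and a difference of 1.5-fold or more. Family totals and paralog ratios were compared with exact permutation tests. P-values measure only the technical spread between libraries of a pool.

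Read counts were solved from the steps of the RPKM values for 98.1% of the 19200 genes above 0 and serve for depth, for the floor of 3 reads and for one alternative. An exon length was solved along with the counts. For 24.3% of the 17502 genes with a GENCODE exon length, it was within 5% of that length, which is not the RefSeq length. The correlation of same-numbered libraries' deviations was 0.0475, so numbers were not taken as pairs. Named are the 10 genes, *Prdm13*, within each list the genes called (where more than 4 were called, those with the 2 highest and 2 lowest changes), and the 3 profiles nearest the most changed member. The members and lists were chosen with earlier results of these data known. Some listed genes are not reported here and were left out of the lists, their counts and their sums. Gene spans are those of RefSeq on GRCm38.p6, the mm10 assembly, and exon overlaps are from GENCODE vM21. Alternatives were pseudocounts of 1 and 0.01, no filter, median ratio scaling, no trend, a replicate block, each library left out, and limma voom on solved reads. Scripts were tested on simulated data. Python 3.11.15 was used for tables and figures (pandas 2.3.3, numpy 2.4.6, matplotlib 3.10.9) and for exact tests (scipy 1.17.1).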

Additional observations from a re-analysis of the deposited data

How the results depend on the processing

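Of 99 values of the 9 genes tested over 11 alternatives, 96 kept their direction and their side of the call, 2 lost the call, 1 gained it and none changed sign. With no filter on RPKM, 0 members were called higher (*Ebf2* and *Ebf3* each had a limma adjusted p of 0.0619), 0 passed the adjusted p in either direction, and the calls fell from 3 to 1 in the proneural list, from 3 to 0 in the progenitor list and from 5 to 1 in the early neuron list; over all genes the calls fell from 440 higher and 322 lower to 30 and 14, and the cause was not tested. Without a trend, 1 member passed the adjusted p as lower (*Myt1l*, 0.0450), with *Insm1* at 0.0954 and *Scrt2* at 0.0527. Leaving out 1 library gave 2 to 3 members called higher, 0 called lower, 3 higher by the adjusted p, 0 to 2 lower by it, and a median log2 fold change of -0.086 (without Homo replicate 1) to -0.032 (without Het replicate 2). Over all genes it gave 258 (without Homo replicate 2) to 437 called higher and 212 (without Homo replicate 2) to 266 called lower. A pseudocount of 1 gave 334 higher and 221 lower.

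With the replicate number as a block, 2 members were called higher and 0 lower, 4 passed the adjusted p as lower (*Scrt1* at 0.0391 in addition) and 459 genes were called higher and 342 lower; the libraries share only a number. Limma voom on the solved reads also placed 4 members lower by the adjusted p (*Scrt1* at 0.0437). Depth limits the reading of *Insm2*, which had 5 and 12 reads in the Homo libraries and 0 in the others.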
